A study of Mus musculus with 8 samples.

Results

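The 50 genes described here act in the cell division cycle, from the D-type cyclins that open it to the motors and kinases of mitosis. They were taken by symbol from a fixed list that used no measured value, and all 50 were found among the 32903 genes of the data. RNA was sequenced from Kupffer cells, the macrophages that live in the sinusoids of the liver, isolated from wild-type mice. The 5 naive libraries came from untreated mice, and the labels do not say that these received the corn oil vehicle. The 3 CCl4 libraries came from mice given 0.75 mL/kg of carbon tetrachloride, a liver toxin, in corn oil 3 times a week over 8 weeks, a course that scars the liver. CCl4 libraries are numbered 1, 2-4 and 3 in the labels, and the second of these names is not explained there. Age, sex and the number of animals behind a library are not stated, so each p-value below rests on the spread among 8 libraries, and that spread may in part be technical. Values are TPM, an abundance corrected for transcript length and scaled to the library total. They carry no record of how many reads were counted, so the depth of the libraries is unknown.

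Cells leave rest when D-type cyclins bind their kinases and inactivate the retinoblastoma family, which frees E2F factors to switch on the genes of DNA replication. A later wave of transcription, driven by B-Myb and FoxM1 together with the MuvB complex, supplies the cyclins, kinases, kinetochore proteins and motors of mitosis. Kupffer cells renew themselves by local division in the adult liver, and after injury monocytes that enter from the blood can divide there as well.

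Naive 5 stood apart within its group. On the first principal component of all tested genes naive 5 lay at -16.0, between the other naive libraries at -63.2 to -46.9 and the CCl4 libraries at 72.8 to 81.5. CCl4 1, at 79.2, lay between the other CCl4 libraries on that component. Naive 5 was the highest naive library for 34 of the 50 genes, and CCl4 1 was the highest CCl4 library for 41. The same counts over all tested genes are not given here. The labelled cell type was checked against marker genes. The 8 Kupffer cell markers together held 2502 to 5363 TPM in naive and 293.2 to 409.0 TPM in CCl4 libraries, and 7 of the 8 were lower by limma. The 8 monocyte markers together held 148.6 to 260.1 TPM in naive libraries, highest in naive 5, and 703.4 to 1039 TPM in CCl4 libraries, highest in CCl4 1, and 4 of the 8 were higher. Markers of sinusoidal endothelium, 8 genes, held 5164 to 10130 TPM in naive and 371.4 to 603.4 TPM in CCl4 libraries, and all 8 were lower. Erythroid genes held 2644 to 4944 TPM in naive 1 to 4, 156.1 TPM in naive 5 and 36.5 to 77.7 TPM in CCl4 libraries, and 3 of the 3 tested were lower. Conventional dendritic cell markers held 173.0 to 219.7 TPM in naive and 276.2 to 417.3 TPM in CCl4 libraries, with 2 of 7 higher and 2 lower. Much of this difference was Cd209a, at 0.44 to 14.7 TPM in naive and 125.0 to 165.7 TPM in CCl4 libraries. Flt3 was the other gene called higher, and Clec9a and Zbtb46 were the 2 lower. These marker levels differed along with the treatment, and their part in the results below was not tested. In bulk RNA, more dividing cells and more RNA of these genes per cell cannot be told apart.

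Genes of mitosis rose in the CCl4 libraries, while most genes of DNA replication did not pass the test and those of G1 were divided. The test was limma on log2(TPM + 1), applied to genes that reached 1 TPM in 3 or more libraries, and a gene was called at a Benjamini-Hochberg adjusted p under 0.05. Of the 50 genes 49 were tested, 27 were higher in CCl4 libraries and 2 were lower, and 20 were not called. Among all 15629 genes tested, 15.3% were called higher and 22.5% lower. In 24 of the 49 genes every CCl4 library lay above every naive library, against 16.3% of all tested genes, and in 1 gene every CCl4 library lay below, against 20.6%. The median log2 fold change was 0.81 for the 49 genes and -0.06 for all tested genes. Under quantile normalization the median of all tested genes moved to 0.11 and that of the cell cycle genes to 1.01, with 35 called higher and 2 lower. That scaling also changed the split of all called genes, from 2393 higher and 3513 lower to 4011 and 3086.

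The calls did not rest on 1 library alone, though leaving out naive 5 or CCl4 1 moved them. Without naive 5, 30 of the genes were called higher, among them all 27 of the full comparison, and every one of those 27 fold changes was larger. Without CCl4 1, 22 were called higher, 21 of them shared with the full comparison, and each of the 27 fold changes was smaller. Among all tested genes, 2568 of 15475 were called higher without naive 5 and 1889 of 15394 without CCl4 1. The 6 genes lost without CCl4 1 were Ccnb1, Plk1, Uhrf1, Prc1, E2f1 and Mcm5. A core of 20 genes was called higher in all 21 alternative settings: Cdk6, E2f2, Cdt1, Foxm1, Ccna2, Ccnb2, Aurka, Aurkb, Mki67, Top2a, Bub1, Bub1b, Cenpe, Birc5, Tpx2, Kif11, Kif20a, Nusap1, Cdc20 and Ube2c. The share of all tested genes called in every setting was not computed, so this core cannot be set against it. In the heatmap of the 50 genes the change was concentrated in the lower rows.

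**Figure D1:**
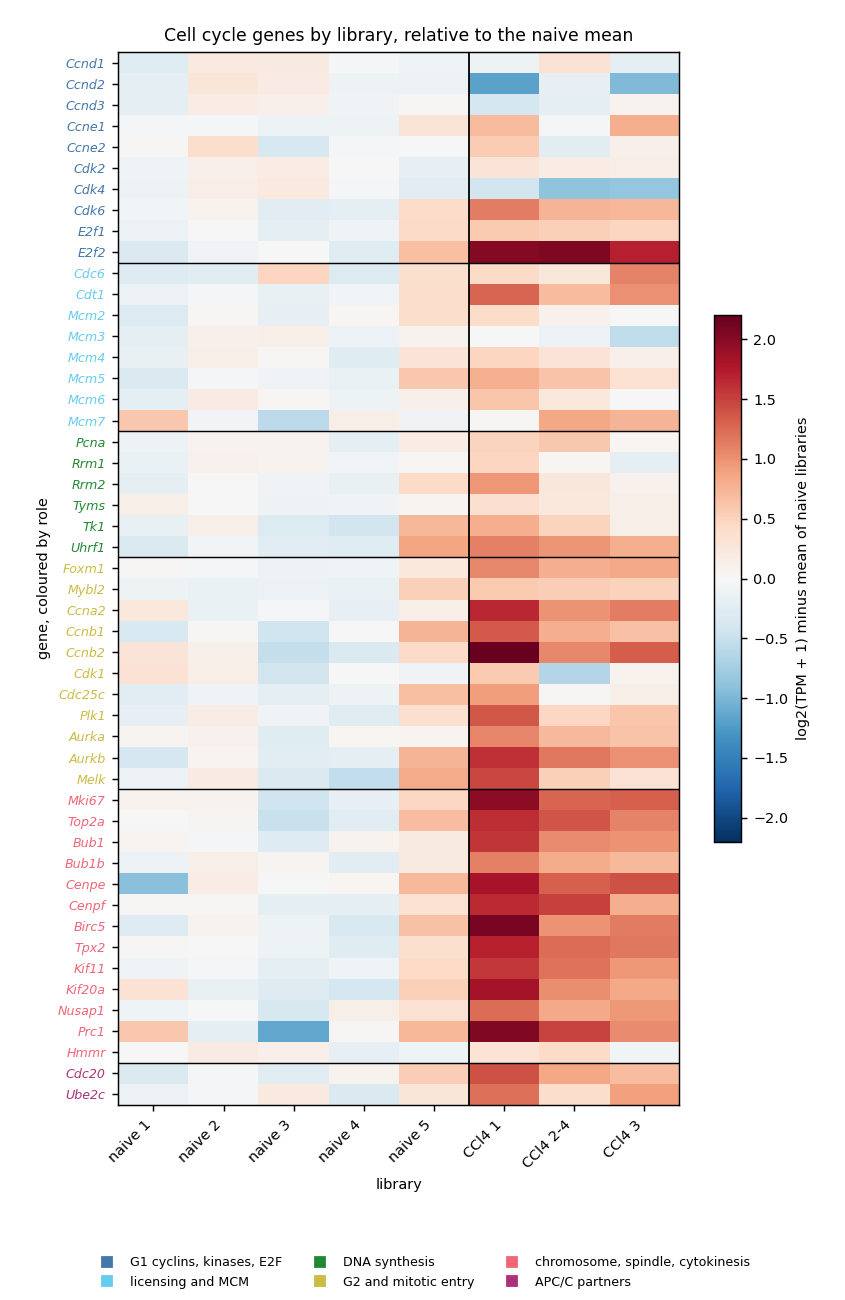
Heatmap of the 50 cell cycle genes (rows, gene names coloured by role) in the 8 libraries (columns; the vertical line separates naive from CCl4), coloured by log2(TPM + 1) minus the mean of the naive libraries. Most mitotic genes are red in all 3 CCl4 columns, often most strongly in CCl4 1, and many are paler red in naive 5; Cdk1, Cdc25c and Hmmr are not red in every CCl4 column, and Ccnd2 and Cdk4 are blue in CCl4 columns.

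Promoters are shown because the elements that time both waves of transcription are known to lie there. RefSeq promoter windows on GRCm38.p6, from 250 bases before to 50 bases after the start of transcription, were at hand for 40 of the 50 genes in 45 windows. Each was searched on both strands for the cell cycle genes homology region (CHR, the letters TTTGAA), a MuvB binding element, for CCAAT, the box bound by NF-Y, and for E2F words (TTTCCCGC, TTTCGCGC, TTTGCCGC and TTTGGCGC). Matches of different motifs were counted separately even where they overlapped. The windows below belong to the called gene with the lowest adjusted p of each of the first 5 roles in order of the cycle, among genes that had a window. Those of the remaining role, the partners of the anaphase-promoting complex, are not printed. Mcm6, a helicase gene that was not called, was added after the motif counts were seen. The 250 bases before the start are printed 5′ to 3′ on the gene's strand, and capitals mark a match on either strand. They lie at chr4:136172024-136172273 (plus strand) for E2f2, chr8:122567765-122568014 (plus) for Cdt1, chr1:128359706-128359955 (minus) for Mcm6, chr17:56303087-56303336 (plus) for Uhrf1, chr9:70421555-70421804 (minus) for Ccnb2 and chr7:135716380-135716629 (minus) for Mki67.
E2f2: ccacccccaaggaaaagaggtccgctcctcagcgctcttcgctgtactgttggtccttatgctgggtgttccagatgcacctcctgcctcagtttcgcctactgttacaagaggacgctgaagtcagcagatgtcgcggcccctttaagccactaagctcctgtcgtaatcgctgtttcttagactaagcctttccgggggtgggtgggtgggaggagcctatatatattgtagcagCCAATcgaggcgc
Cdt1: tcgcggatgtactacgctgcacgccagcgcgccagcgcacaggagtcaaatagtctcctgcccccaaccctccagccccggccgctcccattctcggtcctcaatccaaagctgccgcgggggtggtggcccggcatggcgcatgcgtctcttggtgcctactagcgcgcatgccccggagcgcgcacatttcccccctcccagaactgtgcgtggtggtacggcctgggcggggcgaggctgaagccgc
Mcm6: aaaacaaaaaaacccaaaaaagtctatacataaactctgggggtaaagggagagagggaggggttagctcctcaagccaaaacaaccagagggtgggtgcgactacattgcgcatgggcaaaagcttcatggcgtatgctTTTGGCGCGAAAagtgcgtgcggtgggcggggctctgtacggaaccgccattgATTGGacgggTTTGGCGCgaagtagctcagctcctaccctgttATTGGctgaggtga
Uhrf1: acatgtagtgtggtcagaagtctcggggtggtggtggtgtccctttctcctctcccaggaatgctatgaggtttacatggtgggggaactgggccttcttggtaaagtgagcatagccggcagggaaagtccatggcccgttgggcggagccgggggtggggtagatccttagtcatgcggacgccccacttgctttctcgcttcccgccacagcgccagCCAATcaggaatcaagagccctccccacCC
Ccnb2: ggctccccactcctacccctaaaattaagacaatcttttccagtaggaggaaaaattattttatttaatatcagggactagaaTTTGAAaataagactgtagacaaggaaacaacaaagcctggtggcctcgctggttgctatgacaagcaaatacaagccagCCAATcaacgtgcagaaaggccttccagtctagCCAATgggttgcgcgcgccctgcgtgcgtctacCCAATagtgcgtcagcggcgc
Mki67: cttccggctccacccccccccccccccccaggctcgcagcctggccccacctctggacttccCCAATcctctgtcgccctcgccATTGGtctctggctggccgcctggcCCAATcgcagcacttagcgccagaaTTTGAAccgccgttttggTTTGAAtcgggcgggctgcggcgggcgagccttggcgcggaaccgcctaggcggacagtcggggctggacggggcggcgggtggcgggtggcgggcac

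Mki67 carried CHR letters 116 and 98 bases before its start, downstream of 3 CCAAT boxes at 188, 166 and 141 bases. Its distances are from the start of the promoter entry, which lies inside the gene span chr7:135689784-135716450 and not at its end. Ccnb2 carried 3 CCAAT boxes at 87, 54 and 21 bases and CHR letters at 167 bases before and again 4 bases after the start. Mcm6 carried E2F words at 110, 106 and 47 bases, the first 2 of which overlap as one palindrome, and CCAAT boxes at 57 and 14 bases. In the window shown E2f2 held a CCAAT box 13 bases before the start and an E2F word 39 bases after it. Cdt1 held only an E2F word 32 bases after its start. In its printed window Uhrf1 held CCAAT letters 30 and 2 bases before the start, the latter running over it. A further match, read on the other strand and overlapping the one at 2 bases, begins 1 base after the start. E2f2 and Uhrf1 each had another window that is not printed. The unprinted window of E2f2 held CHR letters and CCAAT boxes, and that of Uhrf1 held CCAAT boxes and an E2F word. Over all windows, CHR letters stood in 14 of the 21 windows of G2 and mitotic genes (66.7%), in 1 of the 15 windows of licensing, helicase and DNA synthesis genes (6.67%) and in 17.9% of all 32851 promoters. E2F words stood in 1 of 21 (4.76%), 7 of 15 (46.7%) and 2.27% of the same sets. Within the 15, they stood in 6 of 8 licensing and helicase windows (75.0%) and in 1 of 7 DNA synthesis windows (14.3%). G1 windows held them in 2 of 9 (22.2%). Among windows of the genes called higher CHR letters were found in 13 of 25 (52.0%), and among those of genes not called in 3 of 18 (16.7%). Most of these 13 windows belong to G2 and mitotic genes, so this split largely repeats the one by role. Of the uncalled G2 and mitotic genes with a window, Cdk1 and Hmmr held CHR letters and Melk and Mybl2 did not. The Prc1 windows overlap, and the same CHR letters were counted in each. A match describes letters, and no factor was measured on them.

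**Figure D2:**
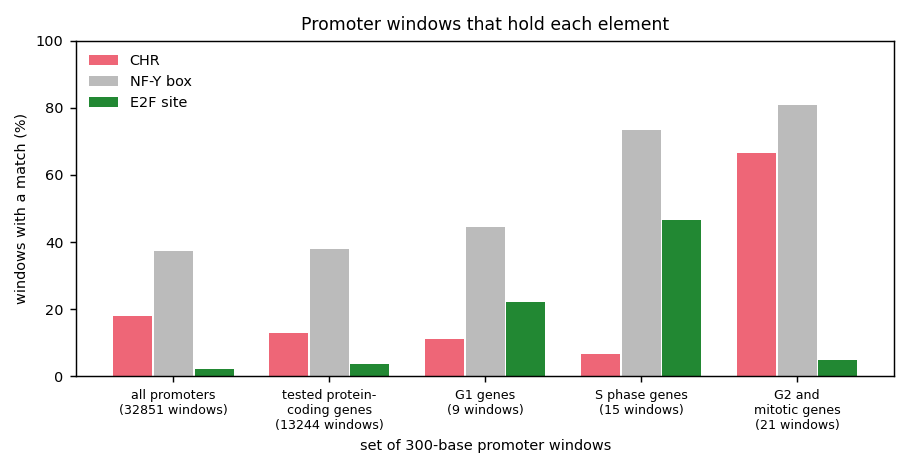
Share of promoter windows (vertical axis, percent, from 0 to 100) that hold the CHR letters, the NF-Y box or an E2F word in all RefSeq promoters, in those of tested protein-coding genes, and in those of G1, S phase (licensing, helicase and DNA synthesis) and G2 and mitotic genes. The CHR bar reaches 66.7% for G2 and mitotic genes and 6.67% for S phase genes, and the E2F bar 4.76% and 46.7%.

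G1 regulators gave calls in both directions. Of 10 tested, 3 were higher (Cdk6, E2f1 and E2f2), 2 lower (Cdk4 and Ccnd2) and 5 not called, beside 15.3% higher and 22.5% lower among all tested genes, with a median log2 fold change of 0.17. E2f2, an activator of replication genes, measured 2.19, 2.76, 3.01, 2.31 and 5.30 TPM in naive 1 to 5 and 15.2, 15.5 and 12.1 TPM in CCl4 1, 2-4 and 3. Every CCl4 library exceeded every naive one, and naive 5 was the highest naive library by a wide margin. Its log2 fold change of 1.93 ± 0.23 (SE, as for every fold change below; limma adjusted p = 8.7e-05) was the largest of the 49. E2f1, its close relative, was more abundant in naive libraries, at 8.71, 9.60, 8.28, 9.02 and 13.2 TPM, and reached 14.9, 14.2 and 13.8 TPM in CCl4 libraries. It rose by 0.52 ± 0.17 (limma adjusted p = 0.0301), and missed the threshold in 10 of 21 alternative settings, with an adjusted p of 0.0829 without CCl4 1. The difference between E2f1 and E2f2 reached the smallest p that the pair test below can give (exact permutation test, adjusted p = 0.119). A call after adjustment was hardly possible in that test, so its absence carries no weight.

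Of the kinase partners of the D-type cyclins Cdk4 fell and Cdk6 rose. The difference between them, given with the pairs below, reached the smallest p of its test but was not called (exact permutation test, adjusted p = 0.119). As explained there, the adjustment left little room for a call. Cdk4 measured 86.1, 102.8, 107.9, 91.8 and 79.6 TPM in naive libraries and 70.4, 49.9 and 51.3 TPM in CCl4 libraries. It was the 1 gene of the 49 with every CCl4 library below every naive library, and it fell by 0.71 ± 0.16 on the log2 scale (limma adjusted p = 0.00489). Cdk6 measured 7.31, 8.12, 6.37, 6.59 and 10.5 TPM in naive and 18.0, 13.5 and 13.3 TPM in CCl4 libraries, again without overlap, and rose by 0.87 ± 0.19 (limma adjusted p = 0.00412). Cdk4 remained the more abundant kinase in every library. Ccnd2 measured 80.1, 112.0, 105.1, 85.0 and 84.3 TPM in naive and 40.4, 81.9 and 46.5 TPM in CCl4 libraries, with CCl4 2-4 inside the naive range. It fell by 0.78 ± 0.22 (limma adjusted p = 0.0179), but the call was lost without CCl4 1 (adjusted p = 0.0803) and without CCl4 3 (adjusted p = 0.0831).

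Ccnd1 and Ccnd3, the other two D-type cyclins, did not pass the test. Ccnd1 ranged from 101.4 to 141.5 TPM in naive and from 104.9 to 152.0 TPM in CCl4 libraries, which gave -0.01 by log2, a value whose sign turned under 2 of the scalings, and Ccnd3 ranged from 75.9 to 98.7 TPM and from 67.9 to 93.7 TPM (-0.17). With Pcna and Cdk4 the D-type cyclins were the most abundant of the 50 genes in naive libraries, at 126.9 ± 12.7 TPM (SD, n = 5) for Pcna, 123.1 ± 17.3 for Ccnd1, 93.7 ± 11.7 for Cdk4, 93.3 ± 14.3 for Ccnd2 and 88.9 ± 9.19 for Ccnd3. Pcna and Ccnd1 differed by less than either SD, Cdk4 with Ccnd2 and Ccnd2 with Ccnd3 did so too, and the step from Ccnd1 to Cdk4 was larger than either SD. The E-type cyclins, which activate Cdk2 at the start of replication, were scarce. Ccne1 ranged from 1.12 to 1.81 TPM in naive and from 1.23 to 2.99 TPM in CCl4 libraries (log2 fold change 0.48, limma adjusted p = 0.117) and Ccne2 from 1.10 to 2.49 and from 1.28 to 2.97 TPM (0.15). Cdk2 itself ranged from 16.5 to 21.2 TPM and from 21.0 to 23.1 TPM (0.20), also without a call.

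In origin licensing Cdc6 and Cdt1 load the Mcm2 to Mcm7 helicase ring onto DNA. Of 7 genes tested 2 were called higher, Cdt1 and Mcm5, beside 15.3% of all tested genes, and the median log2 fold change was 0.29. Cdt1 measured 7.28, 7.96, 7.07, 7.67 and 10.9 TPM in naive and 21.2, 13.7 and 17.3 TPM in CCl4 libraries. The groups did not overlap, with naive 5 the highest of its group, and Cdt1 rose by 0.998 ± 0.19 (limma adjusted p = 0.00172). Cdc6 was too low to be tested, at 0.18 to 1.02 TPM in naive and 0.74 to 2.12 TPM in CCl4 libraries.

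Of the 6 helicase subunits 1 was called, Mcm5, close to the 15.3% called higher among all tested genes. It measured 17.8, 21.8, 21.2, 20.4 and 34.4 TPM in naive and 39.6, 35.5 and 28.5 TPM in CCl4 libraries, so that naive 5 lay above CCl4 3. Its rise of 0.58 ± 0.21 (limma adjusted p = 0.0460) was lost in 11 of 21 settings, with an adjusted p of 0.148 without CCl4 1. Most of its TPM came from a noncoding transcript model, and the curated transcripts alone gave 0.12 (adjusted p = 0.749). Mcm3 was the most abundant subunit, at 36.4 to 46.4 TPM in naive and 28.3 to 42.6 TPM in CCl4 libraries, with a negative log2 fold change of -0.23 that was not called. Mcm2, Mcm4, Mcm6 and Mcm7 had log2 fold changes of 0.17, 0.29, 0.28 and 0.55 with adjusted p of 0.509, 0.194, 0.218 and 0.133 by limma. Each of these 4 overlapped between the groups. Mcm7 alone passed without CCl4 1 (0.80, limma adjusted p = 0.0458), since that library held 7.91 TPM against 14.6 and 13.5 TPM in the other two.

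Of the 6 genes of DNA synthesis and nucleotide supply 1 was called higher, with a median log2 fold change of 0.40. That count is close to the 15.3% called higher among all tested genes. Uhrf1, which carries DNA methylation over to the new strand, measured 6.66, 8.20, 7.15, 6.997 and 16.5 TPM in naive and 19.7, 17.7 and 15.7 TPM in CCl4 libraries. Naive 5 stood among the CCl4 values and away from the 4 other naive libraries. Uhrf1 rose by 0.96 ± 0.26 (limma adjusted p = 0.0143), by 1.18 without naive 5 (adjusted p = 0.000105), and by 0.88 without CCl4 1, where it missed the threshold (adjusted p = 0.0507), as it did on curated transcripts alone (0.83, adjusted p = 0.0565). Pcna, the sliding clamp of the replication fork, measured 116.9, 132.6, 133.2, 110.6 and 141.1 TPM in naive and 178.4, 190.2 and 129.9 TPM in CCl4 libraries. CCl4 3 lay within the naive range, and the log2 fold change of 0.37 ± 0.16 was not called (limma adjusted p = 0.0847). Rrm1 and Rrm2, the subunits of ribonucleotide reductase, had log2 fold changes of 0.11 and 0.43. Thymidylate synthase Tyms had 0.24 and thymidine kinase Tk1 0.47, with limma adjusted p from 0.168 to 0.652 over these 4 genes. Tk1 ranged from 16.0 to 23.8 TPM in naive 1 to 4 and held 36.6 TPM in naive 5, and it was called without naive 5 (0.66, limma adjusted p = 0.0185).

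Taking licensing, helicase and DNA synthesis as the genes of S phase, 3 of 13 were called higher with a median log2 fold change of 0.37. The count varied with the setting, from 1 with curated transcripts alone to 8 with quantile normalization, and was 6 with median-of-ratios rescaling, 4 without naive 5 and 2 without CCl4 1. For the 26 genes of G2, mitosis and the anaphase-promoting complex the count was 21 with a median of 1.10, and it ranged from 18 without CCl4 1 to 23. Among all tested genes 15.3% were called higher in the full comparison.

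**Figure D3:**
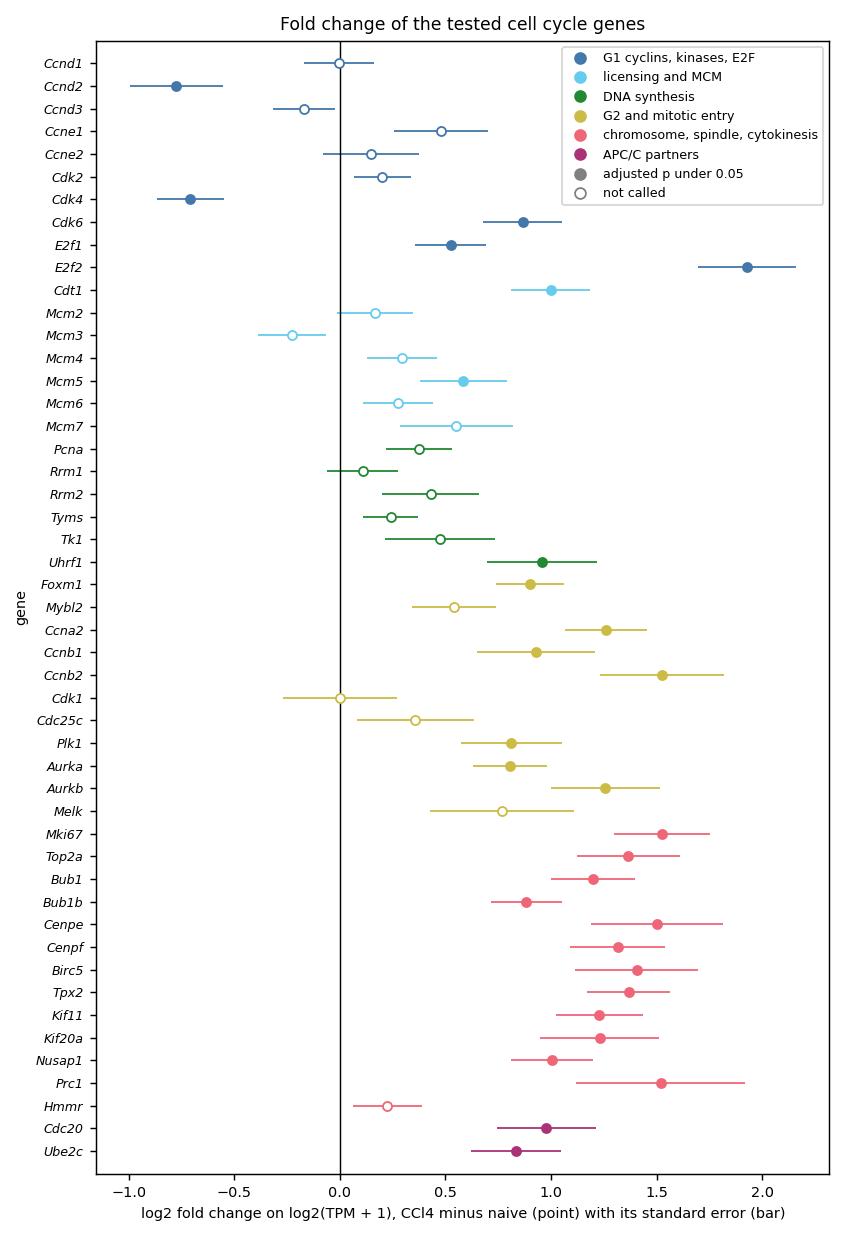
Log2 fold change on log2(TPM + 1), CCl4 minus naive, of the 49 tested genes (points, with standard error as bars; 5 naive and 3 CCl4 libraries), ordered and coloured by role and filled where the adjusted p is under 0.05. Filled points are scattered among the G1 and S phase genes and nearly continuous from Foxm1 down, where Mybl2, Cdk1, Cdc25c, Melk and Hmmr are open.

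Regulators of G2 and mitotic entry rose in 7 of 11 cases, with a median log2 fold change of 0.81, beside 15.3% higher among all tested genes. Without naive 5 the count was 9 of 10 tested and without CCl4 1 it was 5 of 10. Foxm1, the transcription factor of the G2 wave, measured 3.19, 2.98, 2.83, 2.84 and 3.80 TPM in naive and 7.59, 6.19 and 6.35 TPM in CCl4 libraries. The groups were well apart and tight, and Foxm1 rose by 0.90 ± 0.16 (limma adjusted p = 0.00124). Mybl2, the gene of B-Myb, measured 1.997, 1.93, 1.96, 1.91 and 3.65 TPM in naive and 3.80, 3.69 and 3.61 TPM in CCl4 libraries. Naive 5 lay among the CCl4 libraries in this gene, while the 4 other naive libraries differed from each other by less than 0.1 TPM. Mybl2 was not called (0.54 ± 0.20, limma adjusted p = 0.0520), it was called without naive 5 (0.67, adjusted p = 0.00409), and on curated transcripts alone its value was -0.06.

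Mitotic cyclins rose while the kinase they activate did not pass the test. Ccnb2 measured 5.37, 4.67, 2.64, 3.21 and 6.02 TPM in naive and 22.7, 9.83 and 12.2 TPM in CCl4 libraries. All CCl4 libraries were above all naive ones, with CCl4 1 the highest by far, and Ccnb2 rose by 1.53 ± 0.29 (limma adjusted p = 0.00198). Ccna2 went from 4.08 ± 0.62 TPM (SD, n = 5) to 11.3 ± 3.19 TPM (SD, n = 3), a rise of 1.26 on the log2 scale (limma adjusted p = 0.000479). Ccnb1 measured 1.83, 2.61, 1.64, 2.56 and 4.99 TPM in naive and 8.08, 5.21 and 4.56 TPM in CCl4 libraries, so that naive 5 lay above CCl4 3. It rose by 0.93 ± 0.28 (limma adjusted p = 0.0228), and missed the threshold without CCl4 1 (adjusted p = 0.0974), without naive 1 (0.0509) and with no filter on low genes (0.0589). A Ccnb1 pseudogene, Ccnb1-ps, held at most 1.01 TPM in any library.

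Cdk1, the kinase that cyclins A and B activate, measured 4.90, 4.24, 2.59, 3.76 and 3.49 TPM in naive and 6.07, 2.03 and 3.97 TPM in CCl4 libraries. CCl4 1 was the highest and CCl4 2-4 the lowest of all 8, so the groups overlapped fully. Its log2 fold change was 0.00 ± 0.27 (limma adjusted p = 0.998), and the sign turned under scaling to protein-coding genes (-0.06). Its single RefSeq transcript was a curated one, and its promoter window held CHR letters, CCAAT boxes and an E2F word.

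Of the other kinases of this group Aurkb, Aurka and Plk1 rose and Melk was not called. Aurkb, the catalytic subunit of the chromosomal passenger complex, went from 4.94 ± 2.08 to 12.9 ± 3.17 TPM (1.26, limma adjusted p = 0.00312), with 8.51 TPM in naive 5 and 3.43 to 4.95 TPM in naive 1 to 4. Aurka, which acts at centrosomes, went from 2.85 ± 0.37 to 5.77 ± 1.14 TPM (0.81, limma adjusted p = 0.00410). Plk1, the polo-like kinase that triggers mitotic entry, went from 4.30 ± 0.96 to 8.57 ± 3.45 TPM (0.81, limma adjusted p = 0.0201), a call lost without CCl4 1 (adjusted p = 0.0875), the library that held 12.5 TPM against 6.16 and 7.04 TPM in the others. Melk, a kinase of dividing progenitor cells, was not called (0.77, limma adjusted p = 0.104) until naive 5 was left out (0.97, adjusted p = 0.0204). Cdc25c, the phosphatase that activates Cdk1, reached 1 TPM in 1 naive library, naive 5, and was not called (0.36, limma adjusted p = 0.341). Of the 50 genes it was the 1 that passed the filter with fewer than 3 naive libraries at 1 TPM.

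**Figure D4:**
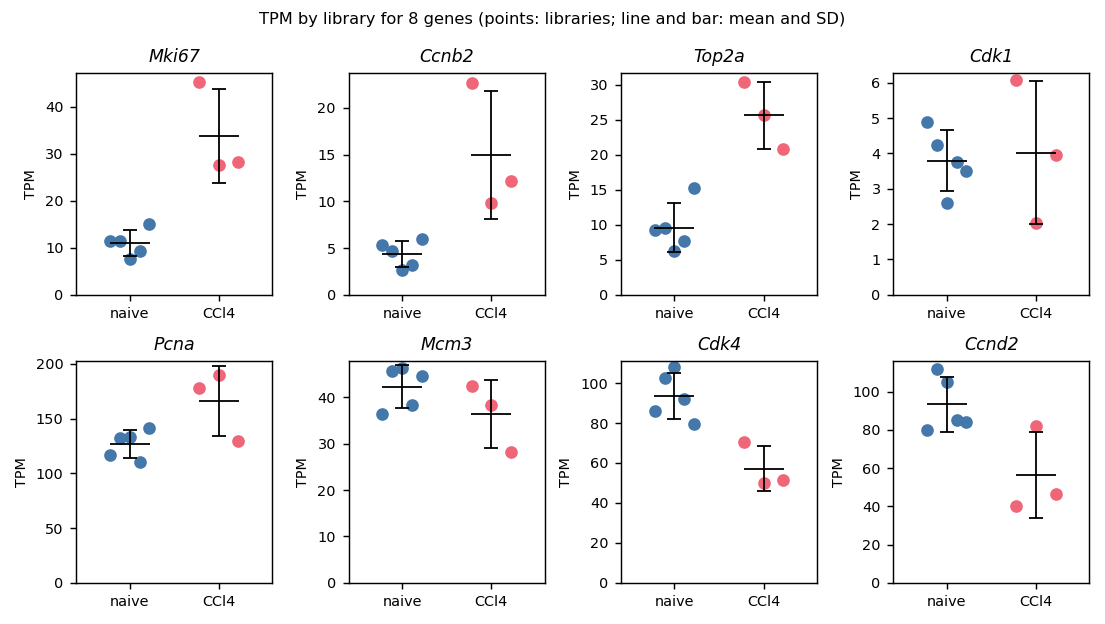
TPM (vertical axis, linear, from 0) of Mki67, Ccnb2, Top2a, Cdk1, Pcna, Mcm3, Cdk4 and Ccnd2 in the 5 naive and 3 CCl4 libraries (points), with the group mean and SD as line and bars. Mki67, Ccnb2 and Top2a are higher in every CCl4 library, Cdk1, Pcna and Mcm3 overlap, Cdk4 is lower in every CCl4 library, and 1 CCl4 point of Ccnd2 lies in the naive range.

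Nearly all genes of the mitotic chromosome, kinetochore, spindle and cytokinesis rose. Of 13 tested 12 were called higher, each of the 12 without overlap between the groups, and the list had a median of 1.32 by log2. Among all tested genes 15.3% were called higher, and 16.3% had every CCl4 library above every naive library. Without CCl4 1 the count was 11 and without naive 5 it was 12. Mki67, the proliferation antigen that coats mitotic chromosomes, lies at chr7:135689784-135716450 on GRCm38 and measured 11.5, 11.4, 7.72, 9.41 and 15.1 TPM in naive and 45.3, 27.7 and 28.4 TPM in CCl4 libraries. Even the lowest CCl4 library stood well above naive 5, the highest naive one. Its rise of 1.53 ± 0.23 (limma adjusted p = 0.000377) came to 1.64 without naive 5 and 1.30 without CCl4 1. Top2a, the topoisomerase that untangles chromatids, measured 9.30, 9.59, 6.24, 7.62 and 15.3 TPM in naive and 30.4, 25.7 and 20.8 TPM in CCl4 libraries. It rose by 1.37 ± 0.25 (limma adjusted p = 0.00131), and as for Mki67, naive 5 and CCl4 1 were the highest of their groups.

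Kinetochore and checkpoint genes rose with them. Bub1, a kinase of the spindle checkpoint, measured 1.04, 0.91, 0.60, 1.06 and 1.24 TPM in naive and 4.83, 3.00 and 2.88 TPM in CCl4 libraries, and rose by 1.20 ± 0.20 (limma adjusted p = 0.000795). Its partner Bub1b went from 7.85 ± 1.14 to 15.3 ± 2.38 TPM (0.88). Cenpe, the motor that moves chromosomes to the spindle equator, went from 1.83 ± 1.05 to 6.64 ± 1.48 TPM (1.50), and Cenpf, a large protein of the outer kinetochore, from 1.73 ± 0.43 to 5.94 ± 1.95 TPM (1.32). The Cenpf call was lost on curated transcripts alone (0.68, limma adjusted p = 0.0530). Birc5, the survivin subunit of the chromosomal passenger complex, measured 4.69, 6.24, 5.41, 4.46 and 9.82 TPM in naive and 28.3, 12.6 and 14.3 TPM in CCl4 libraries, a rise of 1.41 ± 0.29 (limma adjusted p = 0.00311). CCl4 1 held about as much Birc5 as both other CCl4 libraries combined.

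Spindle and cytokinesis genes were scarce in naive libraries and rose with CCl4. Tpx2, which activates Aurka on the spindle, measured 3.99, 3.99, 3.55, 3.08 and 5.29 TPM in naive and 15.1, 10.6 and 10.1 TPM in CCl4 libraries. The groups were far apart for their spread, and Tpx2 had, after E2f2, the lowest adjusted p of the 49 genes (1.37 ± 0.20, limma adjusted p = 0.000285). Kif11, the motor that pushes spindle poles apart, went from 2.55 ± 0.70 to 7.34 ± 1.78 TPM (1.23), and Kif20a, a motor of cytokinesis, from 2.62 ± 1.03 to 7.61 ± 3.31 TPM (1.23). Nusap1, a microtubule bundler, went from 2.06 ± 0.53 to 5.10 ± 0.88 TPM (1.004). Prc1, which bundles the midzone microtubules, varied widely among naive libraries, at 3.64, 1.64, 0.40, 2.14 and 4.13 TPM against 11.6, 7.58 and 5.34 TPM in CCl4 libraries. It rose by 1.52 ± 0.40 (limma adjusted p = 0.0118), a call lost without CCl4 1 (adjusted p = 0.0527) and on curated transcripts alone (adjusted p = 0.0817).

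Hmmr, a spindle protein that also binds hyaluronan, was the exception among the 13. It measured 9.46, 10.9, 10.3, 8.22 and 8.84 TPM in naive and 12.0, 13.1 and 9.11 TPM in CCl4 libraries. CCl4 3 lay within the naive range, and the log2 fold change of 0.22 ± 0.16 was not called (limma adjusted p = 0.316), though it was under quantile normalization and median-of-ratios rescaling. In naive libraries Hmmr had stood with Top2a at 9.55 ± 1.09 and 9.61 ± 3.44 TPM.

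The partners of the anaphase-promoting complex, the ubiquitin ligase that ends mitosis, were both called. Its activator Cdc20 measured 4.17, 5.29, 4.43, 5.79 and 8.41 TPM in naive and 16.1, 10.6 and 9.38 TPM in CCl4 libraries, and rose by 0.98 ± 0.24 (limma adjusted p = 0.00762). Its ubiquitin carrier Ube2c measured 8.60, 9.14, 11.2, 7.41 and 11.6 TPM in naive and 23.3, 12.7 and 18.5 TPM in CCl4 libraries, and rose by 0.83 ± 0.21 (limma adjusted p = 0.0100). Neither gene overlapped between the groups, though CCl4 2-4 was close to naive 5 in Ube2c.

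Summed TPM set the stages side by side within each library. The 26 genes of G2, mitosis and the anaphase-promoting complex together held 107.1, 113.4, 93.4, 94.3 and 154.2 TPM in naive and 354.7, 230.3 and 224.1 TPM in CCl4 libraries, a ratio of means of 2.40. The 14 S phase genes together held 304.6, 350.9, 332.6, 299.2 and 404.0 TPM in naive and 489.7, 453.2 and 357.6 TPM in CCl4 libraries, a ratio of 1.28. The mitotic sum left the naive range in every CCl4 library, whereas the S phase sum of CCl4 3 stayed within it. The 10 G1 genes summed to 441.6 ± 50.8 TPM (naive) and 385.7 ± 36.0 TPM (CCl4), with overlap. Of these genes Cdk4 and Ccnd2 were lower by limma, while 6 of the 10 fold changes were positive. The mitotic sum divided by the S phase sum was 0.35, 0.32, 0.28, 0.32 and 0.38 in naive and 0.72, 0.51 and 0.63 in CCl4 libraries. This quotient, which does not depend on how a library is scaled, lay higher in all CCl4 libraries than in naive 5, the highest naive library. Pcna held much of the S phase sum, and without it the S phase ratio of means was 1.27.

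**Figure D5:**
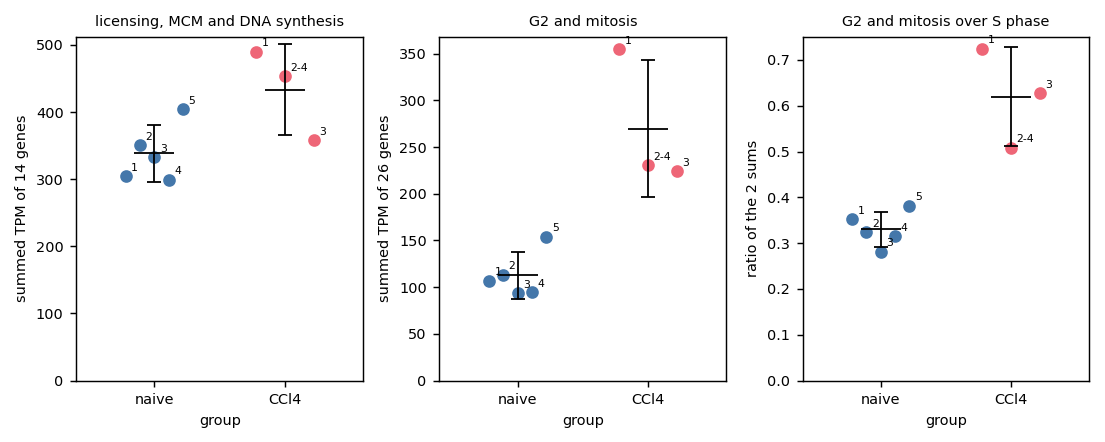
Summed TPM of the 14 S phase genes (left), summed TPM of the 26 G2 and mitotic genes (middle) and the mitotic sum divided by the S phase sum (right) in each library (points, numbered as in the labels), with group mean and SD; all axes start at 0. The mitotic sum is 224.1 to 354.7 TPM in CCl4 and 93.4 to 154.2 TPM in naive libraries, and the S phase sums of the groups overlap.

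Whether related genes moved apart was tested directly on 10 pairs, as the within-library log2 difference between both genes, by a two-sided exact permutation test that enumerates all 56 ways to split 8 libraries into 5 and 3. The smallest p this design gives is 0.0357, and after Benjamini-Hochberg adjustment over the 10 pairs 0 were called. An adjusted p under 0.05 needed most of the 10 pairs to reach that smallest p together. The lack of calls was thus nearly fixed by the design and does not show that any pair moved alike. Unadjusted, 3 pairs reached that smallest p, each with an adjusted p of 0.119. Cdk4 over Cdk6 went from 3.44 ± 0.40 (SD, n = 5) in naive to 1.87 ± 0.05 (SD, n = 3) in CCl4 libraries by log2. E2f1 over E2f2 went from 1.42 ± 0.21 to 0.01 ± 0.15, so that both E2F genes were at a like level in CCl4 libraries. Ccnd1 over Ccnd2 went from 0.40 ± 0.06 to 1.17 ± 0.29. For the other 7 pairs the exact p ran from 0.0714 (Ccnb1 and Ccnb2) to 0.429 (Ccnd1 and Ccnd3), which does not show that they moved alike.

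Further genes of the cycle, 156 in 11 lists by function that share no gene with the 50, were read from the same fit. Of 155 tested, 54 were higher and 9 lower by limma, or 43 and 7 with no filter on low genes. Each count that follows stands beside 15.3% higher and 22.5% lower among all tested genes. The mitotic kinesins and cytokinesis genes had the highest share, 14 of 16 higher with a median log2 fold change of 0.90. Among these 14, Kif18a reached 1 TPM in 0 naive libraries (0.53 to 0.73 TPM) and passed the filter only through CCl4 libraries (1.06 to 1.97 TPM). Kif14 reached 1 TPM in 2 naive libraries. Both are named outside the naming rule, to mark this limit. Kifc1, a minus-end directed motor, went from 4.06 ± 0.91 to 10.9 ± 0.27 TPM (1.25, limma adjusted p = 0.000282), and the cytokinetic ring protein Anln from 3.48 ± 0.59 to 8.34 ± 2.09 TPM (1.05). Of 19 kinetochore, checkpoint and passenger genes 9 were higher and 1 lower. Among those higher Ttk and Cenph each reached 1 TPM in 1 naive library. They too are named outside the naming rule, to mark this limit. The scaffold Knl1 went from 1.35 ± 0.25 to 4.25 ± 0.78 TPM (1.16) and the passenger subunit Cdca8 from 4.33 ± 1.16 to 9.80 ± 2.73 TPM (1.01), while Zwint fell by 0.41 (limma adjusted p = 0.0415).

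Most of the further replication genes were not called. Of 33 genes of origin firing and the fork 5 were higher, close to the share of all tested genes, and 1 lower, with a median log2 fold change of 0.25. The chromatin assembly subunit Chaf1a went from 6.26 ± 2.004 to 12.0 ± 2.19 TPM (0.86, limma adjusted p = 0.0108) and the clamp loader subunit Rfc2 from 24.7 ± 2.53 to 33.6 ± 3.17 TPM (0.43, limma adjusted p = 0.0293). The origin subunit Orc6 fell by 0.86 (limma adjusted p = 0.0315), from 12.8 ± 4.21 to 6.37 ± 1.77 TPM with overlap. Of 11 pocket proteins and other E2F and DP factors 1 was higher, the repressor E2f8, at 0.83 to 2.21 TPM in naive and 5.72 to 8.62 TPM in CCl4 libraries (1.88, limma adjusted p = 0.000119). Of 5 MuvB subunits 1 was higher, Lin9 (1.16, limma adjusted p = 0.000458), whose value on curated transcripts alone was -0.41.

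Complexes that hold or release chromatids differed in how many genes were called. Of 16 genes of the anaphase-promoting complex and separase 1 was higher and 1 lower, both below the shares of all tested genes. Separase, Espl1, which cleaves cohesin, went from 1.45 ± 0.57 to 6.61 ± 1.20 TPM (1.65, limma adjusted p = 0.000198), and the core subunit Cdc27 fell by 0.76 (limma adjusted p = 0.00404). Of 13 condensin and cohesin genes 4 were higher, all of them condensin subunits (Ncapd2, Ncapg, Ncaph and Ncapg2). Ncapg and Ncaph fall outside the naming rule and were chosen after their values were seen. The condensin subunit Ncapd2 went from 10.03 ± 1.97 to 22.8 ± 3.599 TPM (1.12), and Ncapg2 had 1.13 on all transcripts but -0.44 on curated ones. Of 12 other cyclins and division kinases 7 were higher, among them the centrosomal kinase Nek2 (1.01) and the centriole duplication factor Stil (0.90).

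Brakes on the cycle moved both ways. Of 8 inhibitors of cyclin-dependent kinases 3 were higher and 3 lower. Cdkn1a, the p21 inhibitor, measured 17.7 to 35.6 TPM in naive and 39.7 to 52.0 TPM in CCl4 libraries (0.81, limma adjusted p = 0.00973), and Cdkn1b, the p27 inhibitor, 35.5 to 46.4 TPM and 57.2 to 65.3 TPM (0.60, limma adjusted p = 0.00422). Cdkn1c, the p57 inhibitor, measured 18.4, 26.3, 21.97, 18.2 and 10.2 TPM in naive and 0.36, 3.39 and 1.76 TPM in CCl4 libraries, lowest in CCl4 1, and fell by 2.92 (limma adjusted p = 0.000128). Cdkn2b, an inhibitor of Cdk4 and Cdk6, fell by 1.24 (limma adjusted p = 0.00219). The endothelial markers fell in the same libraries, and their part in these values was not tested.

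Checkpoint genes and the MYC network gave mixed counts as well. Of 10 checkpoint genes tested 4 were higher and 1 lower. Pkmyt1, which holds Cdk1 inactive, went from 5.71 ± 1.09 to 9.85 ± 0.53 TPM (0.71, limma adjusted p = 0.00731). Gadd45b, a stress-induced gene, went from 27.3 ± 5.67 to 47.1 ± 8.22 TPM (0.78), while its relative Gadd45a fell by 0.53 (limma adjusted p = 0.0223). Of 12 genes of the MYC network and antiproliferative genes 5 were higher and 2 lower. The antiproliferative genes Btg2 and Btg1 went from 126.1 ± 7.96 to 328.2 ± 83.9 TPM (1.34, limma adjusted p = 9.4e-05) and from 96.6 ± 4.51 to 220.1 ± 48.5 TPM (1.16), both without overlap. The MYC antagonist Mxd4 fell by 1.09 (limma adjusted p = 0.00181) and Mycn fell by 1.05 (limma adjusted p = 0.00281), the latter from at most 2.30 TPM.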

How the data were processed

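RNA was sequenced from 5 naive and 3 CCl4 Kupffer cell libraries, grouped by GEO's labels. The authors deposited TPM for each RefSeq transcript, per the file headers. Kallisto 0.42.4 and GRCm38 are named in the submitters' processing notes; neither index nor read trimming is named in the sources used here. Of the TPM of a library 7SL and 7SK RNA took 32.5% to 45.0%. Of 107384 transcripts, 86722 were matched by accession without version to a RefSeq gene table of GRCm38.p6 and summed per gene; the 20662 others, 6.06% to 7.58% of the TPM, were not used, and some genes may therefore be undercounted. Genes that reached 1 TPM in 3 or more libraries entered limma 3.58.1 (R 4.3.3) as log2(TPM + 1) (group as the only term, eBayes with intensity trend, Benjamini-Hochberg, threshold 0.05). This scale understates the change of low genes. The fit was tested on simulated data. Exact permutation tests used scipy 1.17.1. Promoters came from RefSeq, GRCm38.p6. Genes, lists, pairs and tests were chosen with earlier results of these data known. All 50 genes are reported. Of each further list, the 2 called genes with the lowest adjusted p in each direction are named, with exceptions marked in the text. Alternatives were other pseudocounts, filters, scalings and variance settings, library weights, curated transcripts only, a replicate block and leaving out each library.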

Additional observations from a re-analysis of the deposited data

Results flagged for a closer look

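The check covered 77 genes, the 50 cell cycle genes and the 27 named by rule from the further lists. Of these, 13 had a naive library whose gap to the next exceeded the 95% critical value of Dixon's test for 5 samples (0.710 of the range). Chance alone marks about 5% of groups, and the genes share their libraries. In 12 of the 13 genes the library was naive 5. It lay above the 4 other naive libraries for Ccne1 (1.81 TPM against at most 1.26), Cdc25c (2.08 against 0.87), Cdt1 (10.9 against 7.96), Mcm5 (34.4 against 21.8), E2f1 (13.2 against 9.60), E2f2 (5.30 against 3.01), Mybl2 (3.65 against 1.997), Kif11 (3.77 against 2.41) and Uhrf1 (16.5 against 8.20). Of the further genes it was high for Chaf1a (9.69 against 6.005) and Nek2 (2.45 against 1.52) and low for Gadd45b (17.5 against at least 27.7). The remaining one was Aurka, at 2.197 TPM in naive 3 against 2.93 to 3.10 TPM in the other naive libraries. Naive 5 also held the most TPM of monocyte markers (260.1 against at most 174.9) and the least of erythroid genes (156.1 against at least 2644) among naive libraries. Whether these go together was not tested.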

How the results depend on the processing

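The number of cell cycle genes called higher stayed within 22 to 35 over all 21 alternatives, and the number called lower was 1 or 2. With the replicate block 29 were higher and 1 lower, Cdk4 being lost (adjusted p = 0.0675), and 5312 genes were called in all. Deviations of same-numbered libraries correlated at 0.08 and -0.04, within the -0.12 to 0.16 of the other pairs. With so few libraries this cannot settle whether the replicate numbers pair them, and the labels do not say so. The block in effect compared replicates 1 and 3. Leaving out each library gave 22 to 30 genes higher and 1 to 2 lower; for the further lists it gave 34 to 61 higher and 6 to 18 lower, the low of 34 without CCl4 1 and the high of 18 without naive 5. All genes called higher came to 4011 with quantile normalization and 1592 with curated transcripts only. Genes of the further lists called lower came to 18 when rescaled to protein-coding genes, 20 without 7SL and 7SK RNA and 17 with library weights; those called higher to 31 with curated transcripts only.

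Values whose sign turned were mostly near 0, and the cause was not tested. Cdk1 gave -0.0201 and -0.00838 with pseudocounts of 0.1 and 0.5, -0.0623 on protein-coding genes, -0.0802 without 7SL and 7SK RNA, -0.00923 with library weights and -0.2875 to 0.324 when each library was left out. Ccnd1 gave 0.0845 with median-of-ratios rescaling, 0.0636 with quantile normalization and -0.165 to 0.101 over the left-out libraries. Over the same, Ccne2 ranged from -0.0624 to 0.339, Rrm1 from -0.0728 to 0.259 and the difference Ccnd1 minus Ccnd3 from -0.0158 to 0.396. On curated transcripts Mybl2 was -0.0609, Lin9 -0.41, Ncapg2 -0.44 and the difference Aurka minus Aurkb 0.038. The difference Bub1 minus Bub1b was -0.14 with a pseudocount of 5. Depth is unknown, so the precision of single values near 1 TPM (Cdc6, Cdc25c, Bub1) cannot be given, and 3 CCl4 libraries limit every test.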

Other observations

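RefSeq holds curated transcripts and predicted models, and their shares differed between genes. Of the 50 genes 27 had curated transcripts only, and in 10 under 50% of the TPM in CCl4 libraries was on curated ones. Top2a had 16.1% of its TPM on its curated transcript in naive and 44.0% in CCl4 libraries; that transcript held 2.83, 2.82, 0.05, 0.55 and 1.49 TPM in naive and 15.6, 7.25 and 11.01 TPM in CCl4 libraries. A predicted Top2a model held 6.46, 6.34, 5.09, 4.76 and 13.8 TPM and 14.8, 18.3 and 9.14 TPM in the same order. The share of a gene's reads given to near-identical transcripts is an estimate, so these splits are less certain than the gene sums. For Mcm5 the curated share was 20.7% in naive and 15.6% in CCl4 libraries, and its noncoding model averaged 18.3 and 29.2 TPM.

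Thymidylate synthase has a pseudogene in the annotation, Tyms-ps, at 0.81 to 1.44 TPM in naive and 0.96 to 1.64 TPM in CCl4 libraries, against 18.3 to 25.8 TPM for Tyms. Among markers of other cells that divide in the liver, T and NK cell genes held 84.7 to 107.9 TPM in naive and 36.6 to 94.1 TPM in CCl4 libraries, and B cell genes 82.0 to 142.1 and 61.5 to 150.3 TPM. Of 7 T and NK cell genes 3 were lower by limma. Hepatocyte genes held 986.1 to 1983 TPM in naive and 476.7 to 1319 TPM in CCl4 libraries, highest in CCl4 1 of that group, and 5 of 8 were lower. Stellate cell genes held 42.5 to 95.7 and 104.8 to 111.9 TPM, with 2 of 8 higher and 2 lower. Neutrophil genes held 14.9 to 23.3 TPM in naive and 24.8 to 42.2 TPM in CCl4 libraries, most of it Csf3r, which was higher by limma, while S100a9 was lower and Ly6g was listed at 0 in all 8 libraries.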
